A study of Mus musculus with 20 samples.

Results

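Genes of protein folding in the endoplasmic reticulum (ER) and of the unfolded protein response (UPR) were examined in dendritic cells grown from mouse bone marrow (BMDCs) and given the BET bromodomain inhibitor I-BET151 (iBET), which keeps BET proteins from binding acetylated histones, and IgG immune complexes. The 31 genes were taken by symbol from a list of UPR sensors, ER chaperones and folding enzymes, factors of ER-associated degradation (ERAD) and parts of the translocon. The rule is a list of names and uses no measured value, but the list was drawn up with earlier results of these data known. All 31 symbols were found among the 24421 genes of the count table, and 30 of them were among the 12465 genes with enough counts to be tested. Derl3 was the gene left out, with at most 5 counts in a library.

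Bone marrow of 5 wild-type C57BL/6 mice (A to E) was cultured for 8 days in medium with 40 ng/mL GM-CSF. Cells received I-BET151 at 3.3 μM or DMSO, together with ovalbumin (Ova) or insoluble complexes of ovalbumin and antibody (IC), for 4 hours. The resulting groups are called iBET IC, iBET Ova, DMSO IC and DMSO Ova, with 5 RNA-seq libraries each and 20 in all. Every group, controls included, had ovalbumin and GM-CSF. Per the labels the control cells had 5% DMSO, and whether the iBET groups had the same amount of solvent cannot be read from them. The labels describe iBET and stimulus as given at the same time, whereas the study's methods place iBET shortly before the stimulus. The labels say that the cells were sorted into lysis buffer, and the gate is not given in the sources used here. The study's methods instead describe lysis of the cells in culture and name no sort before RNA-seq. Whether the cells were sorted is thus not settled here. The replicates were mice, and libraries were assigned to mice A to E by the order of the numbered sample titles, 1 per group each. The titles do not name the animal, so which libraries share a mouse was read from that order.

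The ER lumen is where secreted and membrane proteins fold. When unfolded proteins accumulate there, the sensors IRE1 (Ern1), ATF6 and PERK (Eif2ak3) signal to the nucleus: IRE1 splices the mRNA of the transcription factor XBP1, ATF6 is cut in the Golgi to release a transcription factor, and PERK phosphorylates eIF2α and thereby favours translation of ATF4. The Hsp70 chaperone BiP (Hspa5) binds unfolded chains and holds the sensors inactive, and its gene is a standard target of the ATF6 and XBP1 factors. Dendritic cells are known for constitutive IRE1 and XBP1 activity. The counts are per gene, so they show neither the splicing of Xbp1 mRNA nor the cutting of ATF6.

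The ER stress response element (ERSE), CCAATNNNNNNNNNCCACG, is the promoter motif through which ATF6 acts together with NF-Y, which binds the CCAAT part. It was searched for, on both strands, in RefSeq promoter windows of 300 bases (GRCm38.p6, 250 bases before to 50 after a start site), of which 26 of the 31 genes had at least 1. The windows of 9 of these 26 genes held it, against those of 37 of all 27025 gene symbols with a window (0.119% of all 32851 windows). Only exact matches were counted, so sites that differ in any fixed letter are neither marked nor counted. The window of Hspa5, at chr2:34771840-34772139 on the plus strand, is shown whole because Hspa5 rose most with iBET. The fixed letters of its exact ERSE match are in capitals.

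Hspa5: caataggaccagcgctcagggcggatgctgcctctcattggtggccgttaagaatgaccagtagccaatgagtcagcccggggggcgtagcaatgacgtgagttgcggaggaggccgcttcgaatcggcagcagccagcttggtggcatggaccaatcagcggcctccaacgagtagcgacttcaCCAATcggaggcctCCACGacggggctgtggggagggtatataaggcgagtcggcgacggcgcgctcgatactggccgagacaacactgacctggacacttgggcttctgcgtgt

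The ERSE matches of the other 8 genes are shown because 6 of these genes passed the test in at least 1 comparison. Each is written 5′ to 3′ on the strand of the match, with the fixed letters in capitals.

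Hsp90b1, first: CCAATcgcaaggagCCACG
Hsp90b1, second: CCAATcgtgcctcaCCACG
Calr: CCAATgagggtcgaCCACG
Canx: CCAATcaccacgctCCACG
Creld2: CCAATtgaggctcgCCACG
Pdia6: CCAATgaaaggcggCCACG
Dnajc3: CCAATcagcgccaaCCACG
Syvn1: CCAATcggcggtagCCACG
Derl3: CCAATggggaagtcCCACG

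Counted from the RefSeq start site, with the base before it as -1, the match of Hspa5 ran from -65 to -47 and that of Syvn1 from -44 to -26. Those of Calr ran from -162 to -144, of Creld2 from -126 to -108, of Dnajc3 from -105 to -87 and of Pdia6 from -98 to -80. Calr, Creld2, Derl3 and the nearer of the pair of matches of Hsp90b1 were on the strand opposite to the gene. The related element ERSE-II, ATTGGNCCACG, was found in the windows of Herpud1 (ATTGGgCCACG) and Dnajb11 (ATTGGcCCACG) and in 0.0365% of all windows. The XBP1 site core, TGACGTGG, was found in a window of Txndc5 and in 0.676% of all windows. The CCAAT box by itself, which the ERSE contains, was in 37.4% of all windows. By gene, it was in windows of 20 of the 26 genes and of 11096 of all 27025 gene symbols. A match describes letters only, and binding was not measured.

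**Figure D1:**
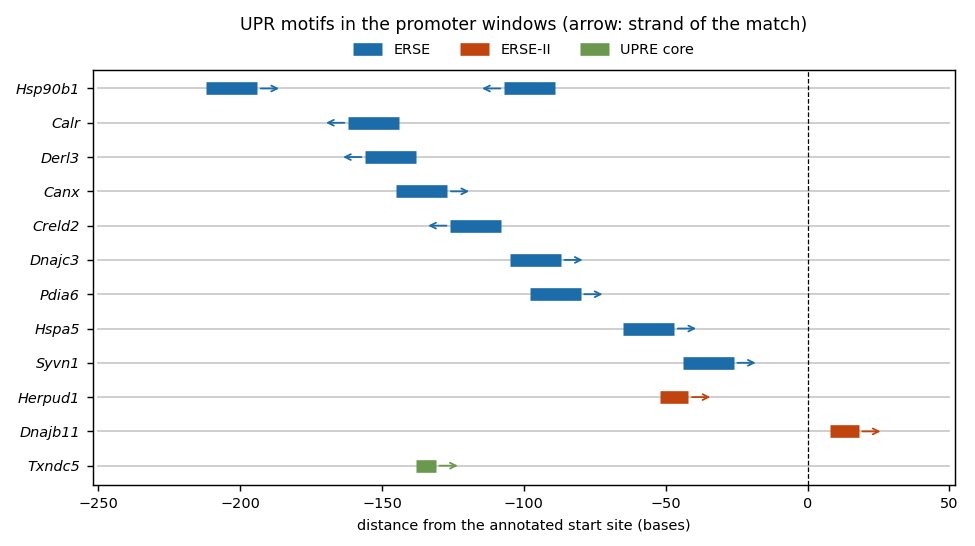
Positions of the ERSE (blue), ERSE-II (red) and XBP1 site core (green) matches in the promoter windows of 12 of the genes, in bases from the RefSeq start site (dashed line), with an arrow for the strand of the match. All ERSE matches lie upstream of the start site, and the ERSE-II match of Dnajb11 lies downstream of it.

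Total counts ranged from 16447491 to 29245150 per library, and the ribosomal RNA gene Rn45s took 2.69% to 8.61% of them. The dendritic cell markers Itgax, Cd74, H2-Ab1, Zbtb46 and Ccr7 were present in all libraries, with a summed level of the list of 4279 to 8824 CPM (counts scaled to a common TMM-normalized library size, the unit of all levels given here), and Flt3 reached at most 4.94 CPM. Markers of neutrophils (12.2 to 52.7 CPM summed over the list), T cells (at most 1.17), mast cells and basophils (at most 2.8) and erythroid cells (at most 15.9) were low, and macrophage markers, which GM-CSF cultures also carry, summed to 833 to 1774 CPM. Libraries of mice A and B lay apart from the other libraries on the second principal component, between -33.8 and -18.6 against 9.83 and 23.5, and no batch is named in the sources used here. Fewer cells of a type and less RNA per cell cannot be told apart in such bulk libraries.

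The 31 genes took 0.667% to 1.08% of the counts of a library. Their summed level was 6207 to 7528 CPM with DMSO and Ova, 7830.3 to 8564 with DMSO and IC, 8945 to 10397 with iBET and Ova and 10162 to 11584 with iBET and IC. The ranges of DMSO IC and iBET Ova did not overlap with that of DMSO Ova, and both iBET groups lay above both DMSO groups. As shares of the unscaled counts, DMSO Ova (0.667% to 0.785%) and DMSO IC (0.762% to 0.825%) overlapped. Both iBET groups lay above them on that scale too (0.920% to 1.07% with Ova and 0.969% to 1.08% with IC). Without Hspa5 the sums were 5744 to 6893, 7058 to 7669, 7632 to 8595 and 8361 to 9593 CPM in the same order, and the ranges of DMSO IC and iBET Ova then overlapped.

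The first question was how iBET changed these genes in cells that had ovalbumin without antibody. The BiP gene Hspa5 rose 2.92-fold, the lectin chaperone gene Calr 1.9-fold and the sensor genes Atf6 and Ern1 1.76-fold and 1.61-fold. Syvn1, the gene of an ERAD ubiquitin ligase, rose 1.65-fold, and Manf, of a cofactor of BiP, 1.58-fold. Of the 30 tested genes 20 rose and 0 fell, against 27.7% higher and 28.9% lower among the 12465 genes tested (quasi-likelihood F test of edgeR, p adjusted by Benjamini-Hochberg over all genes tested, with a threshold of 0.05, as for every adjusted p given here). At an unadjusted p of 0.05 the counts were 21 and 0, and the Wald test of DESeq2 gave 21 and 0. The median log2 fold change of the 30 genes was 0.29, against -0.0029 for all genes tested. With mouse as a replicate block, 23 rose and 3 fell (33.5% and 35.2% of all genes): Canx, Derl1 and Sec61a1 were added as higher and Dnajb11, Xbp1 and Derl2 as lower. The count of 20 became 17 to 20 when a mouse was left out, where Pdia4 was lost without mice B, C or E (adjusted p up to 0.1), Ppib without D or E (up to 0.0856) and Edem2 without D or E (up to 0.0797). Without mouse B, 1 gene, Xbp1, passed as lower. In mice A and B only 14 rose, and in mice C, D and E only 24. Over all genes tested 2669 and 3866 rose in these subsets, and 3041 to 3514 when a mouse was left out, against 3449 in the full set. Fits with mice left out had fewer libraries and no replicate block.

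In cells with immune complexes iBET raised Hspa5 2.39-fold, Ern1 1.79-fold, Calr 1.76-fold and Atf6 1.6-fold. In these cells 14 of the 30 genes rose with iBET and 4 fell, against 27.1% higher and 29.0% lower among all genes tested. Their median log2 fold change was 0.16, against -0.0054 for all genes. When mouse was a block 19 rose and 5 fell (32.6% and 35.4% of all genes): Pdia4, Ppib, Canx, Derl1 and Ssr1 were added as higher and Txndc5 as lower. All 14 genes that rose in IC cells were among the 20 that rose in Ova cells, which are separate libraries of the same mice. The like overlap over all genes was not counted, so this is not read as particular to the 30 genes. The 4 genes that fell were Dnajb11, Edem1, Herpud1 and Derl2, and their number was 2 without mouse B, 0 without C, 2 without D, 1 without E and 2 with no filter on low counts. Lower calls over all genes went from 3612 to 3257, 3101, 3181 and 3260 without mice B, C, D and E. In mice A and B only 11 rose and 1 fell (2550 and 2682 over all genes). In mice C, D and E only 16 rose and 4 fell (3582 and 3613 over all genes).

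The second question was how immune complexes changed these genes, and it was answered with the same 20 libraries, so each comparison with IC shares groups with those of iBET. Immune complexes raised the cofactor genes Creld2 1.72-fold and Manf 1.62-fold, Hspa5 1.48-fold and Calr 1.45-fold in DMSO cells. With DMSO 15 of the 30 genes were higher with IC than with Ova and 1, Ern1, was lower, against 9.59% and 10.7% of all genes tested, and the median log2 fold change was 0.20, against -0.02 for all genes. Blocking by mouse gave 21 higher and 2 lower (18.3% and 19.8% of all genes): Hsp90b1, Pdia4, Canx, Dnajb9, Dnajc3 and Edem1 were added as higher and Xbp1 as lower. The count of 15 became 6 without mouse C, 7 without mouse D and 9 without mouse E. Higher calls over all genes went from 1196 to 568, 659 and 821 in the same order. Leaving out any of these 3 mice ended the call of Ern1 (adjusted p up to 0.154). In mice A and B only 2 were higher (276 over all genes). In mice C, D and E only 21 were higher and 2 lower (1852 and 1556 over all genes). When libraries were scaled by their size only, the median of all genes moved to -0.13, the calls over all genes went from 1196 higher and 1335 lower to 582 and 2593, and 6 of the 30 genes were higher and 2 lower.

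In iBET cells Creld2 was 1.4-fold and Calr 1.34-fold higher with IC. There, 5 of the 30 genes were higher with IC than with Ova and 0 were lower, against 5.19% and 6.63% of all genes tested. The 5 were Pdia6, P4hb, Calr, Manf and Creld2, and all of them were among the 15 genes higher with IC under DMSO. For this overlap, too, no count over all genes was made. At an unadjusted p of 0.05 the counts were 10 and 4, and the Wald test of DESeq2 gave 9 and 0. Blocking by mouse gave 13 higher and 3 lower (14.2% and 14.7% of all genes): Hspa5, Hsp90b1, Pdia4, Ppib, Dnajb11, Hyou1, Sec61b and Ssr1 were added as higher and Xbp1, Ern1 and Sel1l as lower. The count of 5 became 2, Manf and Creld2, without mouse B, without mouse C or without mouse D. Higher calls over all genes went from 647 to 365, 284 and 296 in the same order. Leaving out any of the 5 mice ended the call of Pdia6 (adjusted p up to 0.143). In mice A and B only none passed, where 181 were higher and 115 lower over all genes. With scaling by library size only, the median of all genes was -0.12 against -0.0141, all calls went from 647 higher and 827 lower to 313 and 2030, and 3 of the 30 genes were higher and 4 lower.

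The interaction, defined as the log2 change with iBET in IC cells less that in Ova cells, passed for 0 of the 30 genes (0 higher and 5 lower at an unadjusted p of 0.05) and for 0.0241% (higher) and 0.0160% (lower) of all genes, which is 3 and 2 genes, with 543 of all genes under that unadjusted p. With the replicate block it passed for Manf, as lower (0.401% higher and 0.417% lower among all genes), and the Wald test of DESeq2 also gave 1 gene as lower. The log2 interaction was below 0 for 27 of the 30 genes and ranged from -0.36 to 0.15, with a median of -0.094 against 0.002 for all genes.

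**Figure D2:**
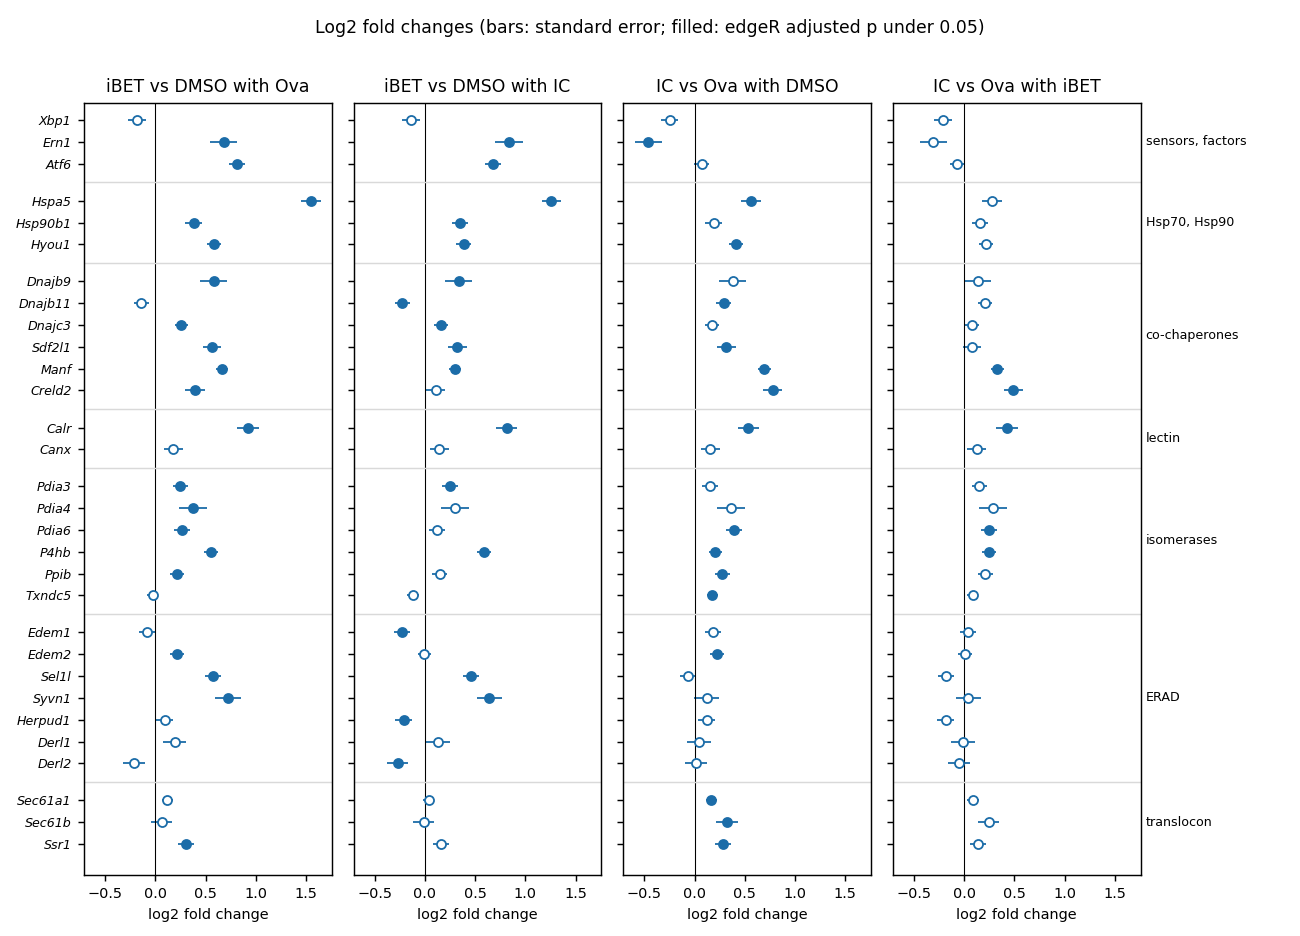
Log2 fold changes (x axis, with the standard error derived from the F test as bars) of the 30 tested genes in the 4 comparisons, ordered by role. Filled points passed edgeR's adjusted p threshold of 0.05. With iBET and Ova the 20 filled points lie right of 0, and Hspa5 lies farthest right in both iBET comparisons. With library size as the only scaling the points of the IC comparisons lie farther left, with a shift of the median of all genes from -0.02 to -0.13 with DMSO.

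Of the sensors and transcription factors, Atf6 and Ern1 rose with iBET under either stimulus, and Xbp1 did not pass. Atf6, at chr1:170704674-170867771 on the minus strand, encodes the sensor that is itself the precursor of a transcription factor. It had 90.1, 99.1, 85, 84.4 and 85.1 CPM in mice A to E with DMSO and Ova and 105, 103, 83.2, 84.4 and 89.9 with DMSO and IC. With iBET it had 168, 177, 151, 140.1 and 145 CPM with Ova and 157, 157, 146, 141 and 145 with IC. Each of the 10 libraries with iBET lay above each of the 10 with DMSO. The log2 fold change with iBET was 0.82 (SE 0.08, adjusted p = 4.01e-08) with Ova and 0.68 (SE 0.08, adjusted p = 4.61e-07) with IC, higher in 5 of 5 mice each. IC against Ova gave 0.07 (adjusted p = 0.594) with DMSO and -0.07 (adjusted p = 0.664) with iBET, and the direction with DMSO turned to -0.04 with scaling by library size only. Over the 20 libraries 91.4% of the variation of Atf6 lay between iBET and DMSO, the largest such share of the 30 genes.

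Ern1, at chr11:106394650-106487852 on the minus strand, encodes IRE1α, the kinase and RNase of the XBP1 arm. Its level in mice A to E was 61.3, 89.8, 76.1, 66.7 and 66.6 CPM with DMSO and Ova and 56.8, 69.1, 45.1, 43.3 and 47.4 CPM with DMSO and IC. It was 118, 141, 120.3, 98.3 and 101 CPM with iBET and Ova and 88.3, 108, 95, 77.9 and 98.3 CPM with iBET and IC. The iBET group lay above the DMSO group under either stimulus, and in each mouse the IC library was below the Ova library. The log2 fold change with iBET was 0.68 (SE 0.13, adjusted p = 0.000231) with Ova and 0.84 (SE 0.14, adjusted p = 2.73e-05) with IC. Ern1 fell with IC under DMSO, with a log2 fold change of -0.46 (SE 0.13, adjusted p = 0.0204), and had -0.31 (adjusted p = 0.145) under iBET, where the call passed with the replicate block (adjusted p = 0.00501).

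Xbp1, at chr11:5520659-5525893 on the plus strand, is the mRNA that IRE1 splices. In mice A to E it had 371, 275, 392, 329 and 394 CPM with DMSO and Ova and 276, 269.9, 315, 299.9 and 322 CPM with DMSO and IC. With iBET the values were 325, 283, 338, 286 and 323 CPM with Ova and 250.3, 262, 285, 275 and 273 CPM with IC. The groups overlapped, and mouse B was lowest with DMSO and Ova. The log2 fold changes were -0.18 (adjusted p = 0.0886) and -0.14 (adjusted p = 0.181) with iBET (Ova, then IC) and -0.25 (adjusted p = 0.052) and -0.21 (adjusted p = 0.13) with IC (DMSO, then iBET). The value with IC was below that with Ova in 5 of 5 mice under either treatment, and with the replicate block Xbp1 passed in both IC comparisons (adjusted p = 0.00447 and 0.0169) and with iBET and Ova (0.0173).

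The BiP gene Hspa5, at chr2:34771970-34777547 on the plus strand, had the largest log2 fold changes with iBET of the 30 genes. It had 635, 584, 464, 456 and 568 CPM in mice A to E with DMSO and Ova and 895, 755, 826, 721 and 805 CPM with DMSO and IC. With iBET it had 1663, 1802, 1555, 1314 and 1564 CPM with Ova and 1959.6, 1991, 2042, 1782 and 1800.2 CPM with IC. The lowest library with iBET lay above the highest with DMSO. The group means were 541 ± 78.6 CPM, 800.3 ± 67 CPM, 1579.6 ± 179 CPM and 1915 ± 117 CPM (SD, n = 5 each) in the same order. Hspa5 was 2.92-fold higher with iBET in Ova cells, a log2 fold change of 1.55 (SE 0.10, adjusted p = 1.23e-10), and 2.39-fold higher in IC cells, a log2 fold change of 1.26 (SE 0.10, adjusted p = 1.85e-09). IC raised it 1.48-fold with DMSO (log2 0.56, SE 0.10, adjusted p = 0.000469), and with iBET the log2 difference was 0.28 (SE 0.10, adjusted p = 0.0685), which passed with the replicate block (adjusted p = 0.00402). The ERSE shown above is 1 of 10 ERSE matches in the windows of these genes.

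Hyou1 and Hsp90b1 encode the other large chaperones of the ER lumen, an Hsp70-related exchange factor of BiP and the Hsp90 homologue GRP94. Hyou1 rose with iBET by 0.59 (SE 0.07, adjusted p = 7.66e-07) on the log2 scale with Ova and 0.38 (SE 0.07, adjusted p = 0.000115) with IC. Its values with DMSO were 213, 210.2, 192, 178 and 196 CPM with Ova and 279.7, 271, 252, 229 and 288 CPM with IC, and those groups did not overlap (log2 fold change 0.42, SE 0.07, adjusted p = 0.000417). With iBET, IC against Ova gave 0.21 (adjusted p = 0.0537), and 0.000721 as adjusted p with the replicate block. Hsp90b1 had 574 ± 58.5 CPM with DMSO and Ova and 747 ± 90.3 CPM with iBET and Ova (SD, n = 5 each), and its log2 fold change with iBET was 0.38 (SE 0.08, adjusted p = 0.00053). With IC it was 0.35 (SE 0.08, adjusted p = 0.00112). In mouse B with iBET and Ova Hsp90b1 had 907 CPM, above the 686 to 721 CPM of the other 4 mice.

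Of 6 cofactors of BiP 5 rose with iBET and Ova (27.7% of all genes tested did), and with iBET and IC 4 rose and 1, Dnajb11, fell (27.1% and 29.0% of all genes). Manf, at chr9:106838312-106891979 on the minus strand, encodes a small secreted ER protein that binds BiP. Its values in mice A to E were 62.5, 54.4, 53.2, 54.4 and 58.9 CPM with DMSO and Ova and 92.5, 82.2, 102, 86 and 95.8 CPM with DMSO and IC. They were 92.7, 82.5, 88.3, 88.3 and 96.6 CPM with iBET and Ova and 115, 112, 114, 112 and 111 CPM with iBET and IC. The ranges with IC alone and with iBET alone overlapped, and the iBET IC libraries were above all others. The log2 fold change with iBET was 0.66 (SE 0.06, adjusted p = 2.47e-08) with Ova and 0.30 (SE 0.06, adjusted p = 0.000365) with IC. That with IC was 0.69 (SE 0.06, adjusted p = 3.36e-07) with DMSO and 0.33 (SE 0.06, adjusted p = 0.00157) with iBET. The interaction was -0.36 (SE 0.09, adjusted p = 0.287), and -0.36 (adjusted p = 0.024) with the replicate block, with the effect of iBET smaller under IC in 5 of 5 mice.

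Creld2 encodes a cysteine-rich protein of the ER that is also secreted, and its larger log2 fold changes were with IC. It had 25.3, 25.4, 23.9, 26 and 23.8 CPM with DMSO and Ova, 41.6, 34.3, 46.4, 41.4 and 49.8 CPM with DMSO and IC and 33.2, 26.2, 34.8, 32.4 and 36.9 CPM with iBET and Ova. With iBET and IC it had 44, 39.8, 49, 46.6 and 50.6 CPM. Its log2 fold change with IC was 0.78 (SE 0.10, adjusted p = 1.66e-05) with DMSO and 0.49 (SE 0.10, adjusted p = 0.00226) with iBET, and 71.5% of its variation lay between IC and Ova. With iBET it was 0.39 (SE 0.10, adjusted p = 0.0017) with Ova, and 0.11 (adjusted p = 0.356) with IC. Whether the effects of IC and iBET on Creld2 differ was not tested.

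Sdf2l1, a part of the BiP complex for newly made chains, rose with iBET by 0.57 (SE 0.09, adjusted p = 2.83e-05) with Ova and 0.32 (SE 0.09, adjusted p = 0.00505) with IC on the log2 scale. It was also higher with IC under DMSO, at 0.32 (SE 0.09, adjusted p = 0.0189), a call lost without mice C, D or E (adjusted p up to 0.143). Dnajb9 encodes ERdj4, a J-domain protein that recruits BiP to IRE1, and had 0.58 (SE 0.13, adjusted p = 0.0011) with iBET and Ova. With IC its 0.34 (SE 0.13, adjusted p = 0.0377) was lost without mice A, B, D or E (adjusted p up to 0.163). Dnajc3, an inhibitor of PERK, had 0.26 (adjusted p = 0.00264) and 0.16 (adjusted p = 0.046) with iBET. Leaving out any of the 5 mice ended the call with IC (up to 0.0934), while the value stayed at 0.158 to 0.179.

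Dnajb11 encodes ERdj3, which brings unfolded chains to BiP, and it was highest with DMSO and IC. It had 97.3, 88.6, 72.3, 81.8 and 82.8 CPM with DMSO and Ova, 108, 103, 105, 99.5 and 102 with DMSO and IC and 99.2, 92.8, 81.6, 88.6 and 80.9 with iBET and IC. The DMSO IC libraries lay above both other groups. Dnajb11 was higher with IC under DMSO (0.29, SE 0.07, adjusted p = 0.00913, lost without mouse C at adjusted p = 0.0609) and fell with iBET under IC (-0.22, SE 0.07, adjusted p = 0.0146, lost without mouse C or E at up to 0.0755). With Ova the iBET value was -0.14 (adjusted p = 0.115), and with the replicate block the adjusted p was 0.0339.

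**Figure D3:**
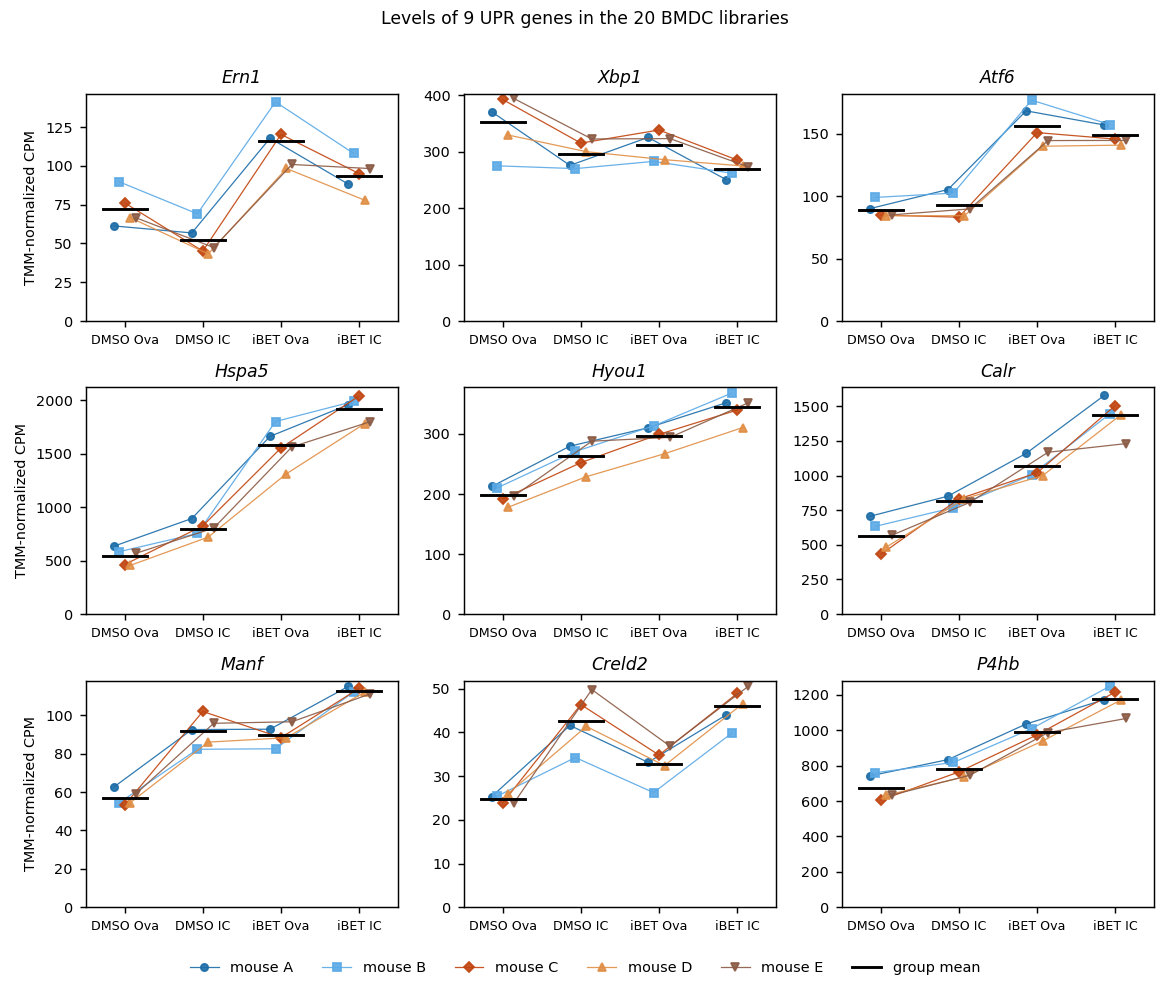
TMM-normalized CPM (y axes from 0) of 9 of the genes in the 4 groups, with 1 line per mouse and a black bar for the mean of 5 mice. Atf6 separates by iBET, and Ern1 does so within each stimulus. Creld2 rises with IC, Xbp1 overlaps between groups and Hspa5 with iBET lies above its levels with DMSO in every mouse.

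The lectin chaperones bind monoglucosylated glycoproteins, calreticulin (Calr) in the lumen and calnexin (Canx) in the membrane. Calr had 706, 633, 431, 483 and 569 CPM with DMSO and Ova and 851, 769, 831, 833 and 806 CPM with DMSO and IC in mice A to E. With iBET it had 1159.9, 1006, 1019.8, 999 and 1168 CPM with Ova and 1579, 1445, 1505, 1438 and 1231 CPM with IC. The 4 groups did not overlap. Calr rose with iBET by 0.92 (SE 0.11, adjusted p = 3.94e-07) on the log2 scale with Ova and by 0.82 (SE 0.11, adjusted p = 1.91e-06) with IC, and with IC by 0.54 (SE 0.11, adjusted p = 0.00147) under DMSO. Under iBET IC raised it by 0.43 (SE 0.11, adjusted p = 0.0119), a call lost without mice B, C or D (adjusted p up to 0.0693). Canx had 624 to 803 CPM with DMSO and Ova and 762 to 1008 with iBET and IC, and the groups overlapped. It had log2 fold changes of 0.18 (adjusted p = 0.121), 0.14 (adjusted p = 0.209), 0.16 (adjusted p = 0.267) and 0.12 (adjusted p = 0.455) in the 4 comparisons. With the replicate block it passed in the first 3 of them (adjusted p = 0.00613, 0.0257 and 0.0218), and 49.8% of its variation lay between mice.

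Of the 6 isomerases, which form disulfide bonds or turn proline bonds, 5 rose with iBET and Ova, 2 rose with iBET and IC and 4 were higher with IC under DMSO, where 27.7%, 27.1% and 9.59% of all genes tested were higher. The share of 33.3% that rose with iBET and IC was thus near that of all genes. In both iBET comparisons 0 of the isomerases fell, against 28.9% and 29.0% of all genes. P4hb, at chr11:120560298-120573253 on the minus strand, encodes the main protein disulfide isomerase. It had 742, 759.8, 605, 633 and 634 CPM with DMSO and Ova and 834, 818, 764, 736 and 746 CPM with DMSO and IC. With iBET it had 1035, 1009, 974, 939 and 987 CPM with Ova and 1173, 1249, 1216, 1170.2 and 1066 CPM with IC, above all DMSO libraries. Its log2 fold change with iBET was 0.55 (SE 0.07, adjusted p = 1.22e-06) with Ova and 0.59 (SE 0.07, adjusted p = 4.77e-07) with IC. With IC it was 0.21 (adjusted p = 0.0381) under DMSO, lost without mice A, C, D or E (adjusted p up to 0.175), and 0.25 (adjusted p = 0.0232) under iBET, lost without B, C or D (up to 0.115).

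Pdia3, the isomerase that works with the lectin chaperones, rose with iBET by 0.25 (adjusted p = 0.00933) with Ova and 0.25 (adjusted p = 0.00969) with IC on the log2 scale, in 4 of 5 mice each, and the latter call was lost without mouse D (adjusted p = 0.0507). Pdia6 had 131 to 177 CPM with DMSO and Ova and 183 to 210.4 with DMSO and IC, which did not overlap. Its log2 fold change with IC was 0.39 (SE 0.08, adjusted p = 0.00179) under DMSO and 0.25 (SE 0.08, adjusted p = 0.0442) under iBET, and with iBET and Ova it was 0.26 (adjusted p = 0.0076). Pdia4 passed with iBET and Ova (0.38, adjusted p = 0.0279), and its libraries of mice A and B were above those of the other mice in each group. With the replicate block Pdia4 passed in all 4 comparisons, with log2 fold changes of 0.39 (adjusted p = 5.83e-06), 0.29 (adjusted p = 0.000118), 0.38 (adjusted p = 3.65e-05) and 0.29 (adjusted p = 0.000757). Ppib, the ER cyclophilin, had 0.22 (adjusted p = 0.0177) with iBET and Ova and 0.28 (adjusted p = 0.0125) with IC and DMSO, the latter lost without mouse C or D (up to 0.107). Txndc5 was higher with IC under DMSO (0.18, adjusted p = 0.0329, lost without mice B, C, D or E at up to 0.141) and had -0.03 (adjusted p = 0.711) and -0.12 (adjusted p = 0.0811) with iBET, the latter with an adjusted p of 0.0227 with the replicate block.

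The ERAD genes did not move together. The ligase Syvn1 (HRD1) and its adaptor Sel1l, which form the core of the membrane complex that passes misfolded proteins out of the ER, rose with iBET under either stimulus. Sel1l had 332, 363, 334, 327 and 342 CPM with DMSO and Ova and 523, 589.6, 496, 457 and 459 CPM with iBET and Ova. With IC it had 358, 344, 301, 283 and 331 CPM with DMSO and 446, 491, 438, 397 and 457 CPM with iBET. All iBET libraries lay above all DMSO libraries, with log2 fold changes of 0.57 (SE 0.08, adjusted p = 4.23e-06) and 0.46 (SE 0.08, adjusted p = 5.26e-05). Syvn1 had 27.2 ± 4.77 CPM and 44.9 ± 4.1 CPM with Ova (DMSO, then iBET) and 29.6 ± 4.4 CPM and 46.3 ± 6.67 CPM with IC (SD, n = 5 each). Its log2 fold changes with iBET were 0.72 (SE 0.13, adjusted p = 6.18e-05) and 0.64 (SE 0.13, adjusted p = 0.000208). With IC against Ova Sel1l had -0.07 (adjusted p = 0.591) and -0.18 (adjusted p = 0.148), of which the second, under iBET, passed with the replicate block (adjusted p = 0.0136).

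Edem1, Herpud1 and Derl2 fell with iBET under IC and did not pass under Ova. Edem1, a mannose-trimming factor for ERAD substrates, had 414, 402, 363, 367 and 361 CPM with DMSO and 347, 367, 307, 307 and 297 CPM with iBET in IC cells, and a log2 fold change of -0.23 (SE 0.08, adjusted p = 0.0172). Herpud1, which scaffolds the ligase complex, had 136, 133, 146, 166 and 151 and 127, 129, 133, 113 and 128 CPM in the same groups, and a log2 fold change of -0.21 (SE 0.08, adjusted p = 0.0334). Derl2, a channel-like membrane protein, had -0.27 (SE 0.11, adjusted p = 0.0388), and with Ova -0.21 (adjusted p = 0.108), which passed with the replicate block (adjusted p = 0.0063). Each was lower in 5 of 5 mice with IC. The calls were lost without mice C or D for Edem1 (adjusted p up to 0.0632), without B, C, D or E for Herpud1 (up to 0.128) and without A, B, C or E for Derl2 (up to 0.137).

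Edem2 rose with iBET and Ova (0.21, adjusted p = 0.0115) and with IC and DMSO (0.23, adjusted p = 0.0238, lost without mice B, C, D or E at up to 0.114), and had 69 to 78.2 CPM with DMSO IC, 66.3 to 78.8 with iBET Ova and 68.5 to 76.7 with iBET IC. Derl1, another derlin, passed in none of the 4 comparisons and differed by mouse. It had 194, 190.1, 144, 141 and 155 CPM in mice A to E with DMSO and Ova and 225, 206, 173, 165 and 173 CPM with iBET and Ova. Every library of mice A and B was above every library of the other 3 mice, and 78.4% of the variation of Derl1 lay between mice. When mouse was a block, Derl1 had log2 fold changes with iBET of 0.19 (adjusted p = 0.000319) and 0.13 (adjusted p = 0.00751). Derl3, the third derlin, had 0 to 5 counts per library, a depth at which no difference was tested.

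All 3 translocon genes were higher with IC under DMSO (9.59% of all genes tested were), and 1 of them, Ssr1, rose with iBET and Ova, a share of 33.3% and near the 27.7% of all genes. Sec61a1 and Sec61b, subunits of the channel through which new chains enter the ER, and Ssr1, a subunit of the associated TRAP complex, had log2 fold changes of 0.17 (adjusted p = 0.0408), 0.32 (adjusted p = 0.035) and 0.28 (adjusted p = 0.0177) in that comparison. These calls were lost when mice were left out: Sec61a1 without B, C, D or E (adjusted p up to 0.146), Sec61b without A, C, D or E (up to 0.178) and Ssr1 without C or D (up to 0.1). Ssr1 also rose with iBET and Ova (0.31, SE 0.08, adjusted p = 0.00301), with 203 to 252 CPM with DMSO and 263 to 336 with iBET. Sec61a1 had 0.12 (adjusted p = 0.0806) with iBET and Ova and passed there with the replicate block (adjusted p = 0.0388), and Sec61b had 0.07 (adjusted p = 0.615).

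Levels between genes were compared per length, as mean CPM per kilobase of annotated exon. With DMSO and Ova the highest were P4hb (236), Calr (196), Canx (152), Hsp90b1 (142) and Hspa5 (128). With iBET and IC the order was Calr (499.8), Hspa5 (453), P4hb (411), Hsp90b1 (207) and Canx (188). The lowest tested genes on this scale were Derl2 (5.33), Syvn1 (5.6) and Ern1 (8.82) with DMSO and Ova. Exon lengths were summed over all annotated exons, so genes with long alternative exons are understated.

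The sources of variation differed between genes. The share between iBET and DMSO was the largest of the 5 shares for 14 genes, that between IC and Ova for 9, that between mice for 6 and the residual for 1, Herpud1. These counts were not made over all genes. The medians over the 30 genes were 36.0% for iBET, 17.8% for IC and 15.2% for mouse, against 40.2%, 6.05% and 17.5% for all genes tested. The 6 genes led by mouse were Derl1 (78.4%), Canx (49.8%), Derl2 (47.3%), Edem1 (41.2%), Pdia4 (38.8%) and Edem2 (35.1%). The genes led most by IC were Creld2 (71.5%), Pdia6 (53%) and Manf (47.4%).

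**Figure D4:**
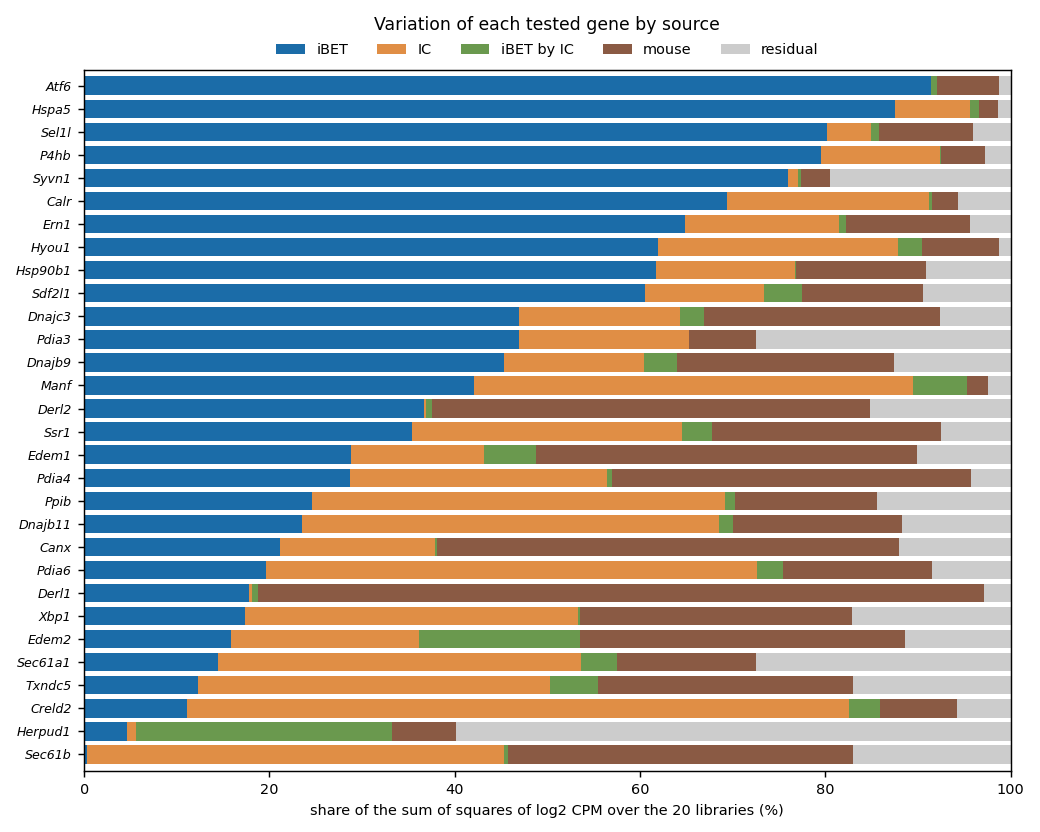
Share of the sum of squares of log2 CPM over the 20 libraries (x axis, %) that lies between iBET and DMSO, between IC and Ova, in their combination, between mice and in the residual, for each of the 30 tested genes (1 bar each). Atf6 (91.4%) and Hspa5 (87.6%) have the largest iBET shares and Derl1 (78.4%) the largest share between mice.

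Exact matches of the ERSE motif gave a further split of the genes that used no measured value. Genes counted as having no match may hold sites close to the motif. As an element of ER stress genes, the motif is not independent of the list. The 5 genes with no window, Manf, Hyou1, Atf6, Derl1 and Sec61a1, are in neither group. Of them Manf, Hyou1 and Atf6 rose with iBET under either stimulus, and Derl1 and Sec61a1 passed under neither. Of the 8 tested genes with an ERSE in the window, 7 rose with iBET and Ova and 5 with iBET and IC, with median log2 fold changes of 0.39 and 0.26, where 27.7% and 27.1% of all genes tested rose. Of the 17 tested genes with a window and no ERSE match, 10 rose with iBET and Ova, and with iBET and IC 6 rose and 4 fell (29.0% of all genes fell), with medians of 0.22 and 0.15. With IC under DMSO 4 of the 8 and 8 of the 17 were higher, with medians of 0.29 and 0.21, where 9.59% of all genes tested were higher. A further 7 tested genes outside the 31 held an ERSE in a window, of which 1 rose and 2 fell with iBET and Ova and 0 rose and 3 fell with iBET and IC, with medians of -0.14 and -0.29. No test of these differences was made.

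The PERK arm, which the 31 genes do not include, was given by 6 genes. With iBET and Ova 4 of them rose (27.7% of all genes tested did), and with iBET and IC 2 rose and 2 fell (27.1% and 29.0%). Ddit3, the gene of the transcription factor CHOP downstream of ATF4, had 39.8 CPM with DMSO and 85.3 with iBET in Ova cells, and 38.9 and 78.3 CPM in IC cells (means of 5 mice). Its log2 fold change with iBET was 1.10 (SE 0.17, adjusted p = 2.18e-05) with Ova and 1.01 (SE 0.17, adjusted p = 5.72e-05) with IC, higher in 5 of 5 mice each, and the groups did not overlap. The PERK gene Eif2ak3 rose by 0.27 (adjusted p = 0.00632) and 0.22 (adjusted p = 0.0211). Atf4 rose with Ova (0.36, adjusted p = 0.0067) and had 0.09 (adjusted p = 0.473) with IC, and Ppp1r15a (GADD34), which reverses eIF2α phosphorylation, rose with Ova (0.60, adjusted p = 0.00494) and had 0.30 (adjusted p = 0.136) with IC, where it passed when mouse was a block (adjusted p = 0.0253). Trib3, a target of ATF4 and CHOP, fell with iBET under IC (-0.52, adjusted p = 0.00802) and with IC under either treatment (-0.56, adjusted p = 0.0144 with DMSO and -0.72, adjusted p = 0.00534 with iBET), and had -0.36 (adjusted p = 0.0509) with iBET and Ova, where it passed with the replicate block (adjusted p = 0.000284). Ppp1r15b, which also serves to reverse eIF2α phosphorylation, fell with iBET under IC (-0.28, adjusted p = 0.00324). It had -0.12 (adjusted p = 0.184) with iBET and Ova, with an adjusted p of 0.0322 under the block.

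Of 103 further tested genes in 6 lists of UPR and ER functions, the PERK arm included, 37 rose and 6 fell with iBET and Ova (35.9% and 5.83%, against 27.7% and 28.9% of all genes tested). With iBET and IC 30 rose and 10 fell (29.1% and 9.71%, against 27.1% and 29.0%), so the share that rose was near that of all genes. Under DMSO 16 were higher and 4 lower with IC (15.5% and 3.88%, against 9.59% and 10.7%), and under iBET 3 were higher and 3 lower (2.91% each, against 5.19% and 6.63%), below the shares of all genes. Blocked by mouse, these counts were 47 and 17, 42 and 18, 37 and 9, and 21 and 4, against 33.5% and 35.2%, 32.6% and 35.4%, 18.3% and 19.8%, and 14.2% and 14.7% of all genes.

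Of 29 other folding enzymes and chaperones 11 rose and 3 fell with iBET and Ova (37.9% and 10.3%, against 27.7% and 28.9% of all genes). The KDEL receptor gene Kdelr3, at under 2 CPM, had the highest log2 fold change, 1.55 (SE 0.23, adjusted p = 1.25e-05), followed by Tmx4, a membrane protein of the thioredoxin family, at 1.37 (SE 0.13, adjusted p = 1.99e-08). The lowest were Fkbp14, a prolyl isomerase gene, at -1.62 (SE 0.32, adjusted p = 0.000278), and Kdelr1, another KDEL receptor gene, at -0.36 (SE 0.06, adjusted p = 6.01e-05). With iBET and IC 10 rose and 3 fell (34.5% and 10.3%, against 27.1% and 29.0% of all genes). Tmx4 at 1.52 (adjusted p = 4.71e-09) and Kdelr3 at 1.52 (adjusted p = 1.06e-05) were highest. Fkbp14 at -0.98 (adjusted p = 0.0145) and Mydgf at -0.36 (adjusted p = 0.0108) were lowest. With IC under DMSO 3 were higher (10.3%, near the 9.59% of all genes), among them Txndc11 (0.41, adjusted p = 0.000203) and the Hsp70-family gene Hspa13 (0.40, adjusted p = 0.0333). Dnajc1 was lower (-0.18, adjusted p = 0.0449), a share of 3.45% against 10.7% of all genes. Under iBET 1 was higher, Txndc11 (0.28, adjusted p = 0.00718), a share of 3.45% against 5.19% of all genes.

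Of 23 other ERAD genes 10 rose and 2 fell with iBET and Ova (43.5% and 8.70%, against 27.7% and 28.9% of all genes). With iBET and IC 8 rose and 2 fell (34.8% and 8.70%, against 27.1% and 29.0% of all genes). Edem3, a mannose-trimming factor, was highest, at 0.91 (SE 0.13, adjusted p = 7.3e-06) and 0.83 (SE 0.13, adjusted p = 1.99e-05), followed by the deglycosylase gene Ngly1 at 0.57 (adjusted p = 3.02e-07) and 0.73 (adjusted p = 1.27e-08). The genes that fell were Ubxn4 (-0.29, adjusted p = 0.000724 and -0.39, adjusted p = 2.94e-05) and the ubiquitin-conjugating enzyme gene Ube2j2 (-0.22, adjusted p = 0.00201 and -0.21, adjusted p = 0.00249). With IC under DMSO 5 were higher, with Ubxn4 (0.30, adjusted p = 0.00283) and the extraction ATPase gene Vcp (0.21, adjusted p = 0.00386) first, and Ngly1 was lower (-0.38, adjusted p = 0.000472). These shares were 21.7% and 4.35%, against 9.59% and 10.7% of all genes. Under iBET Vcp was higher (0.18, adjusted p = 0.0172) and Fam8a1 (-0.32, adjusted p = 0.0465) and Ngly1 (-0.22, adjusted p = 0.0271) were lower. The shares there, 4.35% and 8.70%, were near the 5.19% and 6.63% of all genes.

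Of 17 genes of N-glycosylation 5 rose with iBET and Ova and 4 with iBET and IC (29.4% and 23.5%), near the shares of all genes that rose. In both comparisons 0 fell, against 28.9% and 29.0% of all genes. Dad1, a subunit of the oligosaccharyltransferase, had 0.53 (adjusted p = 1.7e-05) and 0.40 (adjusted p = 0.000376), and the glucosidase gene Mogs had 0.52 (adjusted p = 7.95e-07) and 0.50 (adjusted p = 1.3e-06). With IC 4 were higher under DMSO, with Tmem258 (0.40, adjusted p = 0.00661) and Dad1 (0.33, adjusted p = 0.00864) first, and 1 under iBET, Tmem258 (0.31, adjusted p = 0.0401). These shares were 23.5% and 5.88%, against 9.59% and 5.19% of all genes, so the second was near that of all genes.

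Of 17 genes of translocation 3 rose (17.6%) and 0 fell with iBET and Ova, both fewer than among all genes (27.7% and 28.9%). Sec61a2 at 0.67 (adjusted p = 0.000145) and Sec62 at 0.31 (adjusted p = 0.0221) were highest. With iBET and IC 2 rose, Tram2 (1.04, adjusted p = 0.00786) and Sec61a2 (0.41, adjusted p = 0.0101), and 2 fell, the signal peptidase gene Spcs2 (-0.24, adjusted p = 0.0435) and the signal recognition particle receptor gene Srpr (-0.18, adjusted p = 0.00674). These were 11.8% each, against 27.1% and 29.0% of all genes. With IC under DMSO 3 were higher, among them Ssr2 (0.32, adjusted p = 0.0065) and Spcs3 (0.32, adjusted p = 0.00757), and 1, Tram2, was lower (-1.02, adjusted p = 0.0261). The shares were 17.6% and 5.88%, against 9.59% and 10.7% of all genes. Under iBET calls came only with mouse as a block (4 higher and 1 lower, 23.5% and 5.88%, against 14.2% and 14.7% of all genes).

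Of 11 other UPR regulators 4 rose and 1 fell with iBET under either stimulus (36.4% and 9.09%). Among all genes 27.7% rose and 28.9% fell with Ova, and 27.1% and 29.0% with IC. Creb3l2, the gene of a transcription factor cut like ATF6, had 0.84 (adjusted p = 7e-06) with Ova and 0.66 (adjusted p = 0.00011) with IC, and Wfs1, the gene of an ER membrane protein, had 0.79 (adjusted p = 1.39e-05) and 0.40 (adjusted p = 0.00706). Mbtps2, the gene of the protease that makes the second cut of ATF6, fell with either stimulus (-0.30, adjusted p = 0.023 and -0.54, adjusted p = 0.000298). With IC under DMSO Wfs1 was the only call (0.58, adjusted p = 0.00217), a share of 9.09% and near the 9.59% of all genes that were higher. Under iBET 1 gene was called, as higher and only with mouse as a block (9.09%, against 14.2% of all genes).

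Several markers of cell types moved with iBET. The macrophage list (6 of 6 genes tested) summed to 1188 to 1774 CPM with DMSO and Ova and 833 to 1177 CPM with iBET and Ova, and of the 4 genes that passed Csf1r (-0.83, adjusted p = 3.23e-05), C1qb (-1.02, adjusted p = 0.000926) and C1qa (-0.68, adjusted p = 0.0497) were lower. With IC the list summed to 1261 to 1723 CPM with DMSO and 882 to 1322 CPM with iBET. The plasmacytoid dendritic cell list (3 of 5 tested) summed to 27.7 to 39.1 and 19.5 to 31.8 CPM with Ova and to 28.4 to 43.1 and 20.8 to 36.4 CPM with IC, and Siglech had no count. Among B and plasma cell markers, cells rich in ER, Sdc1 was the only 1 of 7 tested, with 73.6 to 205 CPM and a log2 fold change with iBET and Ova of -0.60 (adjusted p = 0.00887). Jchain, Mzb1 and Cd79a had at most 2, 1 and 7 counts in a library. The dendritic cell list summed to 4279 to 6667 CPM with DMSO and Ova and 4562 to 7052 CPM with iBET and Ova, and to 4992 to 7827 and 5442 to 8824 CPM with IC. Flt3, its gene with the lowest CPM, was the only 1 of its 6 genes that passed with iBET and Ova (-3.66, adjusted p = 8.48e-06). The part of these shifts in the changes of the ER genes was not tested.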

How the data were processed

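RNA was sequenced from 20 libraries (SMARTer Pico kit). Per the labels and methods, the authors used CASAVA, FastQC, Trim Galore, HISAT2 (mm10) and featureCounts and deposited raw counts per gene; the annotation and strand setting are not given in the sources used here. A second deposited table, of the same counts divided by size factors, was not used.

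The members and lists were chosen with earlier results of these data known. All 31 members and the PERK arm were named. Per other list and comparison, up to 2 genes that rose most and 2 that fell most among those that passed could be named. The single-gene result of 1 cell type marker is not reported here. The 5 mice of each group were the replicates. Genes were kept by filterByExpr (minimum count 10), normalized with TMM and tested by the quasi-likelihood method of edgeR 4.0.16 in R 4.3.3, with group as the only factor over 20 libraries and Benjamini-Hochberg adjustment (threshold 0.05). The scripts were tested on simulated data. Scanning used Python 3.11.15.

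In the tests, libraries assigned to the same mouse were paired only with the replicate block, and the main fit did not use the pairing. Deviations of same-mouse libraries from the group means correlated (mean 0.524, lowest 0.307, 30 pairs, against -0.127 over 120 pairs of different mice). Mice A and B also lay apart from the others, and the part of this split in the correlation was not tested. No libraries of a group agreed within counting error (chi-square per degree of freedom at least 12.5 in 40 pairs), so errors of group means are SDs between mice. Each SE of a log2 value was derived from the F test, as the size of that value divided by the square root of F. Library totals (16447491 to 29245150 counts) set the counting precision. Positions are from GENCODE M21 (GRCm38) and promoter windows from RefSeq (GRCm38.p6).

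The alternatives were the Wald test of DESeq2 1.42.0, its size factors, mouse as a replicate block, library size only, no filter, 3 surrogate variables (sva 3.50.0), each mouse left out, mice A and B only, and mice C, D and E only. Fits on fewer mice had group as the only factor, without the block. With fewer libraries a call can be lost although its value hardly moved.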

Additional observations from a re-analysis of the deposited data

Results flagged for a closer look

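In 4 of 120 sets of 5 libraries (3.33%), each set being 1 gene in 1 group, 1 library stood apart from the other 4 by the ratio of its gap to the range (Dixon's critical value 0.71), where chance gives about 5%, or 1 in 20. Hsp90b1 had 907 CPM in mouse B with iBET and Ova, against 686 to 721 CPM in the other mice. Edem1 had 364 CPM in mouse B with DMSO and Ova, against 325 to 329.8 CPM. Herpud1 had 113 CPM in mouse D with iBET and IC, against 127 to 133 CPM, and its lower level with iBET under IC did not pass without mouse D (adjusted p = 0.128). Sec61a1 had 289 CPM in mouse E with iBET and IC, against 322 to 331 CPM.

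The effect of iBET on Manf differed between the stimuli when mouse was a replicate block, with a log2 difference of -0.36 (SE 0.07, adjusted p = 0.024), and it was smaller with IC in 5 of 5 mice. Without the block the value was -0.36 (SE 0.09, adjusted p = 0.287).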

How the results depend on the processing

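Of 59 member calls, 24 kept their direction and passed under every alternative; no called value reversed. The main counts, higher and lower, were 20 and 0 (iBET, Ova), 14 and 4 (iBET, IC), 15 and 1 (IC, DMSO), 5 and 0 (IC, iBET) and 0 and 0 (interaction). Changes of up to 1.5-fold are left out below. Among those are 19 higher (iBET, IC) and 21 higher (IC, DMSO) with the replicate block and 20 higher (iBET, IC) with surrogate variables. Other counts moved by more than 1.5-fold, or from or to 0. With the replicate block they were 3 lower (iBET, Ova), 2 lower (IC, DMSO), 13 higher and 3 lower (IC, iBET) and 1 lower (interaction); no call was lost under the block. With surrogate variables they were 3 lower (iBET, Ova), 24 higher and 2 lower (IC, DMSO), 14 higher and 2 lower (IC, iBET) and 1 lower (interaction). With DESeq2 they were 2 lower (IC, DMSO), 9 higher (IC, iBET) and 1 lower (interaction), and with its size factors 2 lower (IC, DMSO). With library size only they were 3 lower (iBET, Ova), 6 higher and 2 lower (IC, DMSO) and 3 higher and 4 lower (IC, iBET). With no filter they were 2 lower (iBET, IC) and 3 higher (IC, iBET). In mice A and B only they were 1 lower (iBET, IC), 2 higher and 0 lower (IC, DMSO) and 0 higher (IC, iBET), and in mice C, D and E only 2 lower (IC, DMSO); these use fewer libraries. For the other settings the cause was not tested. Leaving out 1 mouse gave 0 to 1 lower (iBET, Ova), 0 to 4 lower (iBET, IC), 6 to 14 higher and 0 to 2 lower (IC, DMSO) and 2 to 4 higher (IC, iBET).

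Reversals, all of log2 values that passed in neither setting, were 45 in 20 results. With library size only, IC gave Atf6 -0.039, Derl1 -0.060 and Derl2 -0.094 under DMSO and Txndc5 -0.024, Dnajc3 -0.031, Sdf2l1 -0.029, Edem1 -0.067, Edem2 -0.099, Syvn1 -0.065 and Sec61a1 -0.019 under iBET, and iBET gave Sec61a1 -0.011 with IC. Edem2 with iBET and IC was 0.0032 (DESeq2), 0.0023 (its size factors), 0.0145 (no filter), 0.0111 (surrogate variables), 0.022 (mice A and B) and 0.0151 (mice C, D and E). Surrogate variables gave Derl2 -0.0093 (IC, DMSO), and with IC and iBET Sdf2l1 -0.0048, Edem2 -0.018 and Derl1 0.0061. In mice A and B only, iBET with Ova gave Edem1 0.027 and Sec61b -0.12, iBET with IC Sec61b 0.11, IC with DMSO Sel1l 0.0058 and IC with iBET Syvn1 -0.054. In mice C, D and E only, Txndc5 was 0.068 (iBET, Ova), Syvn1 -0.041 (IC, DMSO) and Edem2 -0.0027 (IC, iBET). Sec61b with iBET and IC was 0.0070 with no filter. Leaving out 1 mouse gave, with iBET and Ova, Txndc5 -0.046 to 0.036 and Sec61b -0.0027 to 0.17; with iBET and IC, Edem2 -0.021 to 0.0144 and Sec61b -0.026 to 0.030; with IC and DMSO, Syvn1 -0.0056 to 0.25 and Derl2 -0.017 to 0.066; and with IC and iBET, Edem2 -0.0128 to 0.021, Syvn1 -0.059 to 0.12, Derl1 -0.031 to 0.0069 and Derl2 -0.10 to 0.0014.

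The counts per gene show RNA of a whole culture at 1 time after treatment, with no protein, splicing or cleavage. At under 6 counts a library, Derl3 could not be compared. The part of shifts between cell types was not tested.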
